A study of Danio rerio with 4 samples.

Results

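The distal contacts of a contact hub in the zebrafish globin domain are the ligation products that joined a 3.1 kb window on chromosome 3, from 55943000 to 55946100 in the danRer7 assembly, to chromatin outside the block that holds the window. Members were chosen by position: one primer of a pair had its midpoint inside the window, and the other had its midpoint below 55943000 or above 55962000. This rule gave 393 primer pairs of 6699 in all. The window was placed where the highest counts of the data lie, so the level of its contacts is a description and carries no test. The pairs comprised 183 with the flank of low coordinates, 108 with the neighbouring block from 55962000 to 55992000 (the upper block) and 102 with the flank above 55992000. The 3 forward primers of the window were F165 (55943338 to 55943367), F168 (55945257 to 55945286) and F173 (55946012 to 55946041). The 3 reverse primers were R164 (55943182 to 55943211), R166 (55943690 to 55943719) and R170 (55945524 to 55945553).

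The study asked how the large Danio rerio domain of alpha- and beta-globin genes is folded in the nucleated blood cells of larvae and of adults. The assay was 5C (chromosome conformation capture carbon copy), in which religated fragment ends are read out by annealing and ligating 1 forward and 1 reverse primer across each junction. The adult group comprised 2 libraries from blood of adult fish, whose age the labels do not give. The larvae group comprised 2 libraries from blood of fish at 18 days post fertilisation. The labels name no strain, genetic change or treatment for either group and no sorting of the blood, and formaldehyde fixation was the same in both. The files hold no expression, so the labelled cell type could not be checked against markers.

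In the zebrafish domain studied here alpha- and beta-globin genes lie together, whereas mammals and birds keep them on different chromosomes. Globin genes are switched on by distant enhancers, and loops that bring an enhancer next to a promoter are detected as pairs of fragments ligated more often than their separation along the chromosome would give. In mammals the main alpha-globin enhancers lie within the introns of NPRL3, a gene of the nutrient-sensing GATOR1 complex, and zebrafish nprl3 also borders the domain. By gene order in GRCz12tu, a later assembly, mpg (a DNA repair glycosylase) and nprl3 precede the adult globin genes, which are followed by embryo-larval globin genes and then by kank2 and dock6. Gene positions in danRer7 were not analysed here, so no gene was placed on the window or on its partners, and all positions are given as coordinates.

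The libraries differed in depth, which limits what can be read from pairs with few counts. Library totals were 65450 and 38494 counts for adult replicates 1 and 2, and 20801 and 6539 counts for larvae replicates 1 and 2. At 0 counts the share could still be up to 0.00458%, 0.00779%, 0.0144% and 0.0459% of the library in that order, taking 3 counts as the limit. Values for the 4 libraries are given in this order throughout. Amplified reads are not independent molecules, so intervals and limits cover counting error only. Over pairs with at least 20 reads in both libraries of a stage together, chi-square over degrees of freedom between the replicates of the hub pairs was 4.23 in adults (81 pairs) and 4.90 in larvae (18 pairs), so the replicates differed by more than counting error. The labels speak of 2 biological replicates without saying whether each had its own 3C template, so the p-values reflect the spread between libraries only, which may be technical.

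Many of the hub pairs did not hold independent counts. F165 and R164 lie 156 bp apart, and several partner positions also hold a forward and a reverse primer less than 200 bp apart, here called a doublet, with a limit chosen after the values were seen. Any 2 doublets can be joined by 2 mirrored pairs of a forward and a reverse primer, such as F165-R136 and F135-R164. Of 14 such mirrored comparisons of F165 and R164 that held reads, 12 had identical counts in all 4 libraries. F165-R136 and F135-R164 each had 78, 45, 0 and 0 counts. F165-R216 and F215-R164 each had 114, 29, 0 and 0 counts. F165-R222 and F221-R164 each had 1, 1, 36 and 4 counts. The cause of this equality was not tested, and the 2 counts of such a comparison cannot be read as separate measurements. Over the whole matrix 98 of 141 mirrored comparisons (69.5%) were likewise identical in all 4 libraries.

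The exceptions among the mirrored pairs of the window were F165-R155 with F156-R164, and F165-R85 with F86-R164. F165-R155 had 33, 29, 57 and 23 counts, and F156-R164 had 33, 29, 38 and 17 counts, so this comparison was identical in both adult libraries and differed in both larvae libraries. F165-R85 had 24, 8, 0 and 0 counts against 52, 17, 0 and 0 for F86-R164, but F165-R87, whose reverse primer also lies near F86, had the counts of F86-R164 in every library. Counts of calls are therefore also given with each identical mirrored pair counted once.

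**Figure D1:**
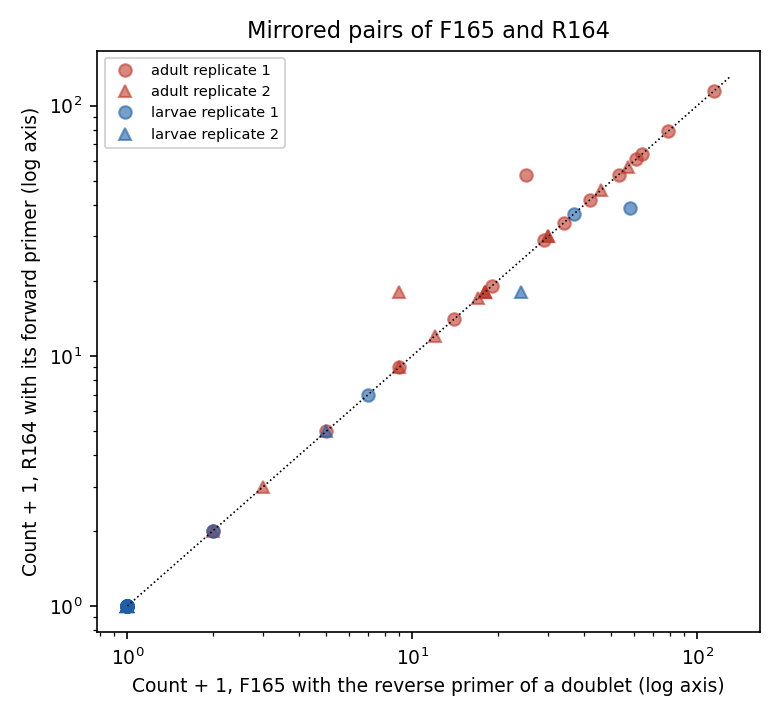
Counts plus 1 of the mirrored primer pairs of the doublet F165 and R164 in the 4 libraries, on log axes, with the F165 pair across and the R164 pair upward. Points on the diagonal are mirrored pairs with equal counts, as for F165-R136 and F135-R164 with 78 counts in adult replicate 1 and 45 in adult replicate 2, and the points off it belong to the F165-R155 and F165-R85 comparisons.

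Detection of hub contacts was wider in adults than in larvae, as it was over the whole matrix. Of the 393 pairs, 141, 134, 48 and 33 had reads in the 4 libraries. Random subsampling to the smallest total of 6539 counts would be expected to leave 101 and 96.0 pairs with reads in adults and 39.2 in larvae replicate 1, beside the 33 of larvae replicate 2. Over all pairs the like values were 1299, 1275, 842 and 877. Both adult libraries were deeper than both larvae libraries, and the stage difference and the depth difference cannot be told apart in the counts of single libraries. No read was found for 238 pairs, 105 had reads in adults only, 14 in larvae only and 36 in both stages. Of the hub pairs with reads 67.7% had them in adults only and 9.03% in larvae only, against 55.7% and 18.7% of all pairs with reads, and the difference was not tested. All 134 hub pairs detected in adult replicate 2 were also detected in replicate 1, which is 95.0% of those of replicate 1. The larvae libraries shared 31 pairs, 64.6% of those in replicate 1 and 93.9% of those in replicate 2. The sets detected in both libraries of each stage shared 22 pairs, which is 16.4% of the adult set and 71.0% of the larval set. Over all pairs the sets shared 493 pairs, 26.5% and 60.6% of the sets.

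Of the 131 primers that could meet the window from outside the block, 83 had reads with it in both adult libraries, 29 in both larvae libraries and 27 in all 4, and 43 had none in any library. For the median partner with reads, leaving out F217, R224 and R236, reads with the window were 2.37% and 2.39% of all its reads in adult replicates 1 and 2 and 0% in either larvae library. Single partners went far beyond this. F163, the primer next to the window, gave 8.25%, 11.5%, 53.3% and 25.0% of its reads to the window, although the larval values rest on totals of 122 and 36 reads. F156 gave 5.54%, 8.04%, 18.3% and 32.7%, with both larvae libraries above both adult libraries.

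Hub pairs held 20.3%, 22.7%, 27.8% and 36.7% of all counts, or 21.5% ± 1.72 in adults and 32.2% ± 6.33 in larvae (SD, n = 2 per stage). Both larvae libraries were above both adult libraries, and the larval share was higher in the shallower library. Exact binomial 95% intervals ran from 20.0 to 20.6%, 22.3 to 23.2%, 27.2 to 28.4% and 35.5 to 37.9%. With 2 libraries against 2, an exact permutation test cannot go below p = 0.333, so shares carry no test.

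Most of that share lay in 3 dominant pairs that join the window to the upper block. F217-R164 had 3362, 2361, 1666 and 715 counts, F165-R224 had 3265, 2410, 1723 and 769, and F165-R236 had 3313, 2335, 1771 and 771. In each library the 3 pairs differed by no more than counting error, with chi-square over degrees of freedom from 0.612 to 1.61. Together they held 74.8%, 81.2%, 89.4% and 93.9% of the reads of the hub with distal partners. Of their partners, F217 starts at 55966196, R224 at 55974761 and R236 at 55983377, with 8.57 kb between the first 2 and 8.62 kb between the last 2.

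The 3 partners of the dominant pairs gave almost no reads to any other place. F217 gave 95.8%, 95.9%, 97.3% and 97.1% of its reads to the window, R224 gave 95.2%, 96.2%, 97.3% and 97.7%, and R236 gave 95.1%, 96.0%, 98.3% and 98.2%. Among all other partners the highest values were 32.6%, 39.5%, 53.3% and 32.7%. The few remaining reads of the 3 partners were also alike. Over 15 other doublets that each of the 3 could meet, F217 had 85, 57, 23 and 8 reads. R224 had 112, 51, 24 and 8, and R236 had 97, 56, 12 and 9. F86 and F228 each lie near 2 reverse primers, of which only R85 and R227 were counted. With R87 and R229, left out here, F217 had 1 and 6 reads in adult replicate 1 and 0 and 5 in adult replicate 2. With R227 it had 0 in both adult libraries, where R224 had 4 and 4 with F228. With the doublet F215 and R216 the 3 had 26, 38 and 26 counts in adult replicate 1 and 0 in larvae. With the doublet F269 and R268 they had 0 in both adult libraries and 13, 10 and 5 counts in larvae replicate 1. The 3 primers, 8.57 to 17.2 kb apart, thus had like counts with the same doublets, and whether the reads can be placed at 1 of the 3 positions was not tested. None of the 3 dominant pairs passed the test between stages (edgeR quasi-likelihood, adjusted p = 0.198, 0.135 and 0.115 for F217-R164, F165-R224 and F165-R236).

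Without the dominant pairs, in counts and in library totals alike, the order of the stages turned. The rest of the hub pairs then held 6.03%, 5.24%, 3.93% and 3.41% of the remaining counts, which is 5.64% ± 0.558 in adults and 3.67% ± 0.370 in larvae (SD, n = 2). Both adult libraries were above both larvae libraries. The share fell as the library total fell, so here too stage and depth cannot be told apart. These shares rest on 3349, 1646, 615 and 146 reads.

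Contacts with the low flank took 3.45%, 3.03%, 2.05% and 1.74% of all counts, and 4.07%, 3.71%, 2.73% and 2.66% without the dominant pairs. Adult libraries were above larvae libraries in both ways of counting. The upper block took 16.5%, 19.5%, 25.7% and 34.8% with the dominant pairs and 1.58%, 1.25%, 1.16% and 0.467% without them, so that larvae were higher in the first and adults in the second. The high flank took 0.319%, 0.231%, 0.0337% and 0.184%, and the larval values there are 7 and 12 reads. Leaving out the dominant pairs, reads of the hub divided among the 3 sides in proportions whose stage means were alike. The low flank held 69.1% ± 2.31 of them in adults and 73.8% ± 6.12 in larvae, the upper block 25.0% ± 1.72 and 21.6% ± 11.1, and the high flank 5.82% ± 0.589 and 4.68% ± 5.01 (SD, n = 2). The larvae libraries differed from each other, with 29.4% and 13.7% in the upper block and 1.14% and 8.22% in the high flank.

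**Figure D2:**
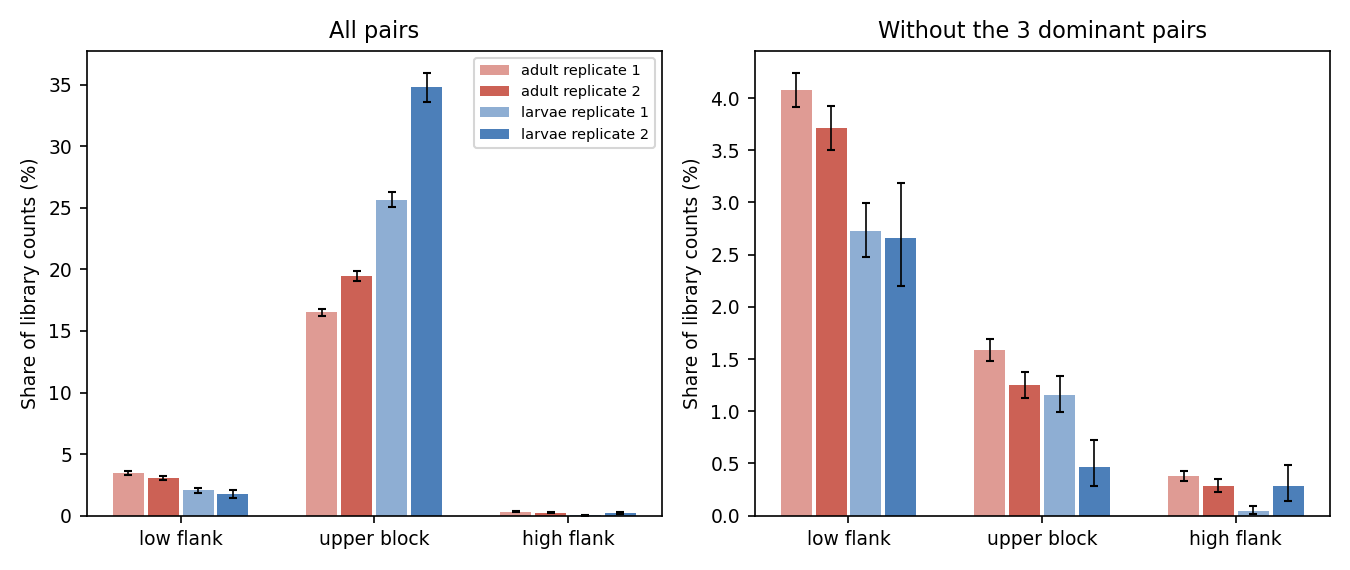
Share of library counts, in percent, taken by hub contacts with each side in each library, with and without the 3 dominant pairs. With them the larvae libraries are higher in the upper block (25.7% and 34.8% against 16.5% and 19.5%), and without them the adult libraries are higher on every side, though the stages nearly meet in the high flank (0.284% in adult replicate 2 and 0.280% in larvae replicate 2). Error bars are 95% exact binomial intervals.

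The viewpoint profile followed the partners of the window along the chromosome. Counts of the 6 primers were summed over partner bins of 5 kb counted outward from the window and tested with edgeR over all 310 bin pairs of the region that passed the filter on low counts. Over that table, 55.2% of bin pairs passed at an adjusted p under 0.05, 34.8% as higher in adults and 20.3% as higher in larvae. The hub had 25 distal bins, of which 21 were tested: 13 passed as higher in adults, 4 passed as higher in larvae, and 4 did not pass. A bin entered the test through the stage where it had reads, so this count describes the profile and is no evidence about the hub. Of the 13 bins higher in adults, 6 passed in each of the 4 fits that left out 1 library (those from 55908000, 55913000, 55928000, 55962001, 55976101 and 55986101). Without adult replicate 1 or 2 only 8 bins were higher in adults, and without larvae replicate 1 only 7.

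Next to the window the low flank held contacts in both stages. The bin from 55938000 to 55942999 had 414, 262, 230 and 59 counts, a log2 change (adult minus larvae) of -0.45 ± 0.27 SE (edgeR adjusted p = 0.145). The bin from 55933000 to 55937999 had 216, 119, 86 and 32 counts and a log2 change of -0.29 ± 0.35 (edgeR adjusted p = 0.481). In CPM (counts per 1000000 counts of the library) per pair without the dominant pairs, the first of these bins stood at 329 ± 26.2 in adults and 593 ± 27.5 in larvae (SD, n = 2). The mirrored pairs F165-R155 and F156-R164 gave 57 and 38 of its counts in larvae replicate 1 and 23 and 17 in replicate 2.

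Beyond them the stages parted. The bin from 55928000 to 55932999 had 536, 305, 46 and 6 counts and was higher in adults (log2 change 2.37 ± 0.34, edgeR adjusted p = 1.93e-10). The bin from 55923000 to 55927999 had 93, 51, 11 and 9 counts, overlapped between stages in CPM and did not pass (log2 change 0.90 ± 0.65, edgeR adjusted p = 0.237).

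From 55908000 to 55922999 the window had 563 and 276 counts in adults and 1 and 0 in larvae. The stretch of 3 bins was delimited after its values were seen. It spans 12 partner primers and 36 pairs. The same partners were covered in larvae, with 1430 and 315 reads at other places and 5714 and 3134 in adults, so that 8.97%, 8.09%, 0.0699% and 0% of their reads went to the window. The bin from 55908000 had 175 and 116 counts in adults and none in larvae, which makes it at least 9.43-fold higher in adults, taking 3 counts per library as the floor (edgeR adjusted p = 1.45e-11). Such bounds, here and below, set the mean CPM of the higher stage against the mean of the floors of both libraries of the other stage. They refer to stage means and need not hold for single libraries. Against the floor of larvae replicate 2 alone, each bound for a feature without larval reads is 1.52 times lower. The bin from 55913000 had 269 and 117 counts against none and was at least 11.9-fold higher (edgeR adjusted p = 1.26e-14). The bin from 55918000 had 119, 43, 1 and 0 counts (log2 change 5.38 ± 1.11, edgeR adjusted p = 1.03e-05).

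Toward the low end of the region the profile was uneven. The bin from 55903000 had 172, 58, 14 and 3 counts and was higher in adults (log2 change 1.96 ± 0.60, edgeR adjusted p = 0.00324). The bin from 55898000 had 131 and 44 counts in adults and none in larvae, at least 5.21-fold higher (edgeR adjusted p = 5.13e-07). The bin from 55888000 had 128, 43, 8 and 0 counts (log2 change 2.68 ± 0.76, edgeR adjusted p = 0.00143). Between the last 2 lay the single bin of the low flank that was higher in larvae. The bin from 55893000 to 55897999 had 8, 7, 31 and 5 counts (log2 change -2.82 ± 0.76, edgeR adjusted p = 7.16e-04), and 29 and 5 of the larval counts came from the pair F173-R77.

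**Figure D3:**
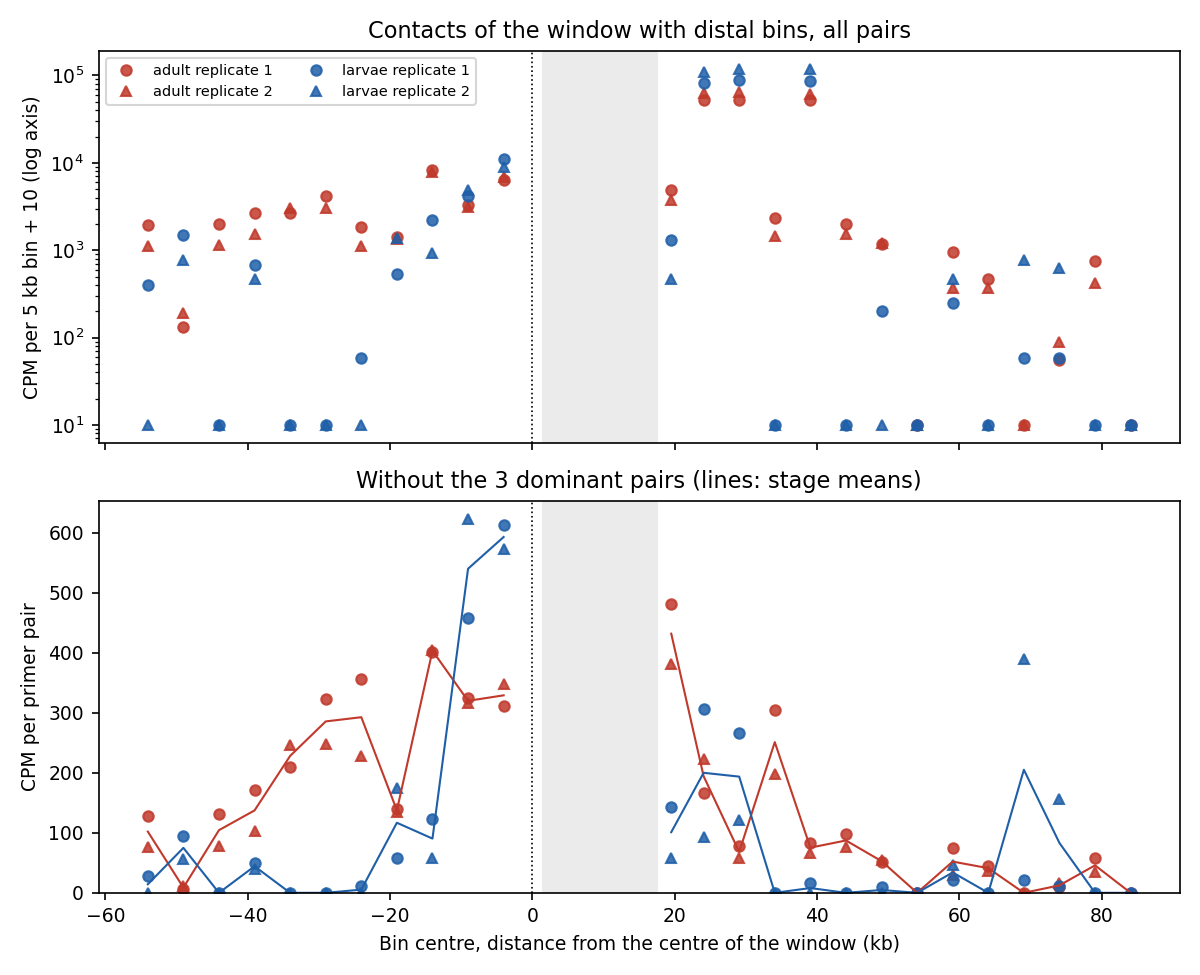
Viewpoint profile of the hub window by distance of the bin centre from the window centre in kb, as CPM per bin plus 10 on a log axis for all pairs (top) and as CPM per primer pair without the 3 dominant pairs (bottom). Points are libraries, lines are stage means, and the grey band is the rest of the block. In the bottom panel larvae are at 0 in the bins from 55908000 and 55913000, where adults stand at 228 and 286, whereas next to the window larvae (593) are above adults (329).

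In the upper block the nearest bin, from 55962001 to 55966100, had 321, 144, 27 and 3 counts and was higher in adults (log2 change 2.26 ± 0.43, edgeR adjusted p = 1.72e-06). Of its adult counts, 60 and 56 came from F165-R211, whose counts equal those of F210-R164, a pair within the block. The bins from 55976101 and from 55986101, which hold no dominant pair, had 152 and 56 counts and 130 and 58 counts in adults and none in larvae. They were at least 6.26-fold and at least 5.79-fold higher in adults (edgeR adjusted p = 4.16e-08 and 1.47e-07).

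The 3 bins with a dominant pair were the other bins higher in larvae. Nearly all reads of each bin were those of its dominant pair, and none of these pairs passed in the fit of single pairs. The log2 changes were alike in both fits, but the SE was 0.38 for each dominant pair and 0.18 for each bin. The fits thus gave different calls on nearly the same reads. The bin from 55966101 with F217 had 3408, 2396, 1690 and 717 counts (log2 change -0.55 ± 0.18, edgeR adjusted p = 0.00694), and without the dominant pairs its log2 change was 0.36 (edgeR adjusted p = 0.624). The bin from 55981101 with R236 had 3406, 2377, 1776 and 771 counts (log2 change -0.65 ± 0.18, edgeR adjusted p = 0.00141), and without the dominant pairs it turned to higher in adults (log2 change 3.28, edgeR adjusted p = 6.76e-04). The bin from 55971101 with R224 had 3391, 2463, 1844 and 784 counts (log2 change -0.66 ± 0.18, edgeR adjusted p = 0.00112) and remained higher in larvae without the dominant pairs (log2 change -0.96, edgeR adjusted p = 0.0377). Of its 121 and 15 larval reads outside the dominant pair, 54 and 6 came from F221 and 36 and 4 from R222, which include the mirrored pairs F221-R164 and F165-R222 with identical counts. Without adult replicate 1, and likewise without adult replicate 2, none of the 4 bins higher in larvae passed.

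The high flank held few reads. Its 8 bins included 4 that were tested, of which 3 were higher in adults and none in larvae. The bin from 55991101, which reaches across the border of the upper block, had 77, 46, 4 and 0 counts (log2 change 3.23 ± 0.91, edgeR adjusted p = 0.00122). The bins from 56006101 and 56021101 had 30 and 14 counts and 48 and 16 counts in adults and none in larvae, so they were at least 1.36-fold and at least 1.91-fold higher (edgeR adjusted p = 0.00188 and 4.56e-04). Against the floor of larvae replicate 2 alone the first ratio is 0.896, so no fold can be stated there, and neither bin passed without larvae replicate 1 (edgeR adjusted p = 0.142 and 0.140). The bin from 56001101 had 62, 14, 5 and 3 counts and did not pass (log2 change 1.29 ± 0.83, edgeR adjusted p = 0.183). The bins from 56011101 and 56016101 had 0, 0, 1 and 5 counts and 3, 3, 1 and 4 counts and were not tested. In the bins from 55996101 and 56026101 no library had a read.

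Replicates of a stage had like profiles. Over the 25 bins, in CPM without the dominant pairs, Pearson's r was 0.948 for the adult replicates and 0.795 for the larvae replicates, and Spearman's rho was 0.975 and 0.820. Across stages Pearson's r ran from 0.193 to 0.541 and Spearman's rho from 0.147 to 0.374. Bins of a library share its depth and differ in their number of primers, so these values are descriptions.

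Along the low flank the larvae libraries were above the adult libraries near the window and below them farther out, which carries no test with 2 libraries per stage. At distances under 5 kb, pairs without the dominant ones averaged 376 ± 47.8 CPM in adults and 834 ± 75.7 CPM in larvae (SD, n = 2). At 5 to 10 kb the values were 259 ± 19.0 and 352 ± 45.8 CPM, and at 10 to 20 kb they were 365 ± 7.70 and 164.6 ± 38.5 CPM. At 20 to 40 kb adults stood at 220 ± 33.2 CPM and larvae at 18.3 ± 2.69 CPM, and at 40 to 60 kb the means were 65.5 ± 22.0 and 30.5 ± 15.6 CPM. The order of the stages thus turned from the class of 5 to 10 kb to that of 10 to 20 kb. In each of these classes the libraries of the stages did not overlap. Near the window, however, most larval reads came from few pairs. Under 5 kb these were F165-R155, its mirror F156-R164 and F163-R164. They had 57, 38 and 42 counts in larvae replicate 1 and 23, 17 and 3 in replicate 2. From 5 to 10 kb these were F152-R164, F152-R170 and F168-R153. They had 14, 24 and 37 counts in larvae replicate 1 and 19, 7 and 2 in replicate 2. The turn was not tested without these pairs. In the upper block adults and larvae stood at 157 ± 49.7 and 117 ± 68.5 CPM at 20 to 40 kb, with overlap between their libraries. At 40 to 60 kb they stood at 72.9 ± 6.02 and 3.28 ± 4.64 CPM.

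The rest of the block, from the window's end to 55962000, was used for comparison, with 1774 pairs to the same partners. Its low-flank contacts at 20 to 40 kb averaged 233 ± 3.10 CPM in adults and 87.2 ± 25.2 CPM in larvae, so there too adults were above larvae. At 10 to 20 kb it stood at 281 ± 6.96 and 273 ± 84.5 CPM. In the upper block at 20 to 40 kb the rest of the block stood at 72.1 ± 2.83 CPM in adults and 104.2 ± 11.6 CPM in larvae. The hub libraries overlapped between stages in that class without the dominant pairs. With these pairs the hub share in the upper block was also higher in larvae. At 40 to 60 kb the rest of the block stood at 37.2 ± 16.8 and 70.4 ± 2.90 CPM, whereas the hub without the dominant pairs had adults above larvae. Contacts of the rest of the block with the high flank averaged 32.0 ± 1.72 and 62.9 ± 6.76 CPM, also with larvae above adults. Without the dominant pairs, the log2 ratio of the hub over the rest of the block, per pair over all partners, was 0.43, 0.24, -0.16 and -0.05. For the upper block it was 0.69, 0.33, 0.07 and -1.36, and with the dominant pairs it was 4.27, 4.54, 4.91 and 5.43. For the low flank it was 0.35, 0.25, 0.07 and 0.61, which overlapped between the stages. For the high flank it was 0.26, -0.26, -3.95 and -1.08, where the larval values rest on 7 and 12 hub reads. These ratios carry no test at this number of libraries. They pool all distances, and the window lies nearer the low flank and farther from the other sides than the rest of the block. Compared within the low-flank distance classes from 5 to 60 kb, hub means were below those of the rest of the block in both stages. The exception was adults at 10 to 20 kb (365 against 281 CPM). Under 5 kb the hub was above, but the rest of the block held only 3 pairs there.

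**Figure D4:**
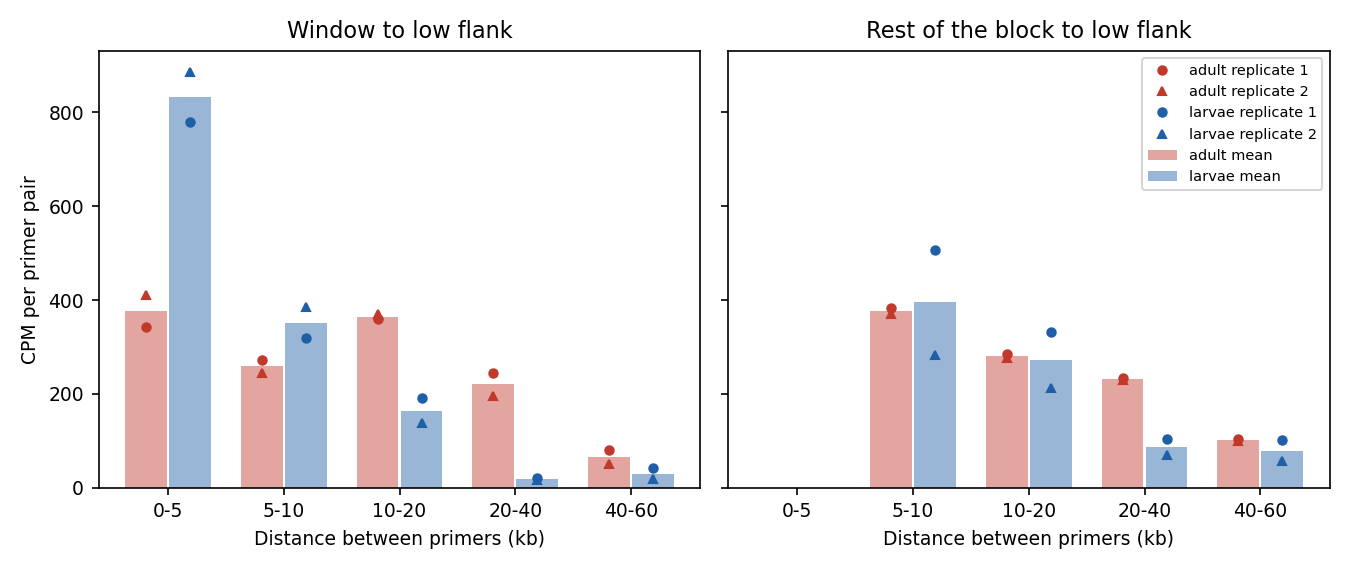
CPM per primer pair by distance class in kb, for contacts of the hub window (left) and of the rest of the block (right) with the low flank. Bars are stage means, points are libraries, and the class under 5 kb is left out on the right because it held only 3 pairs. Hub contacts with the low flank at 20 to 40 kb stand at 220 CPM in adults and 18.3 CPM in larvae.

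Single pairs were tested in an edgeR fit of all pairs of the region. Of the 679 pairs with enough counts for the test, 70.1% passed, 46.1% as higher in adults and 24.0% as higher in larvae. The test reached 50 of the 393 hub pairs: 30 (60%) passed as higher in adults, 9 (18%) as higher in larvae, and 11 did not pass. In the rest of the block 94 of 161 tested pairs (58.4%) were higher in adults and 35 (21.7%) in larvae, which is close to the hub. A pair passed the filter through the stage in which it was high, so these shares do not describe the 343 untested hub pairs. No larval read was found for 26 of the 30 pairs higher in adults, and no adult read for 3 of the 9 higher in larvae. With each such pair set at its bound, the median log2 change was 0.93 over the tested hub pairs, 0.82 over the rest of the block and 0.71 over all tested pairs. Counting identical mirrored pairs once, 24 hub pairs were higher in adults and 8 in larvae.

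Pairs higher in adults were found on both near sides of the hub. On the low flank 20 of 31 tested pairs were higher in adults and 5 in larvae, and in the upper block 10 of 18 were higher in adults and 4 in larvae. Over all 679 tested pairs of the region, 46.1% were higher in adults and 24.0% in larvae. The counts per side include both pairs of each identical mirrored comparison. The single tested pair of the high flank, F173-R278, had 27, 5, 5 and 3 counts and did not pass (log2 change 0.12, edgeR adjusted p = 0.880).

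Among pairs higher in adults with no larval read, F165-R153 at 5.24 kb had 95, 42, 0 and 0 counts and was at least 4.22-fold higher in adults (edgeR adjusted p = 5.89e-06). F165-R216, 21.1 kb apart, was at least 4.14-fold higher and shares its counts of 114 and 29 with F215-R164. F165-R211, 18.7 kb apart, had 60 and 56 counts and was at least 3.93-fold higher (edgeR adjusted p = 1.16e-05). It shares its counts with F210-R164, whose primer F210 lies within the block, so this mirror is not a distal pair. These pairs and F165-R136 with its mirror passed the threshold in each of the 4 fits that left out 1 library.

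The farther contacts of the stretch from 55908000 were carried by several primers of the window. F100, 34.3 kb below R164, had 50 and 50 counts with R164 in adults and none in larvae, at least 3.42-fold higher (edgeR adjusted p = 3.74e-05), and 34 and 33 counts with R170. F112 had 44, 35, 0 and 0 counts with R164 and 27, 9, 0 and 0 with R166. Without adult replicate 2, F100-R164 did not pass (edgeR adjusted p = 0.0596).

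F131 and F135 met both R164 and R170, at distances from 12.1 to 16.7 kb. F135-R164 and F135-R170 were both higher in adults, with 78, 45, 0 and 0 counts and 57, 35, 0 and 0 counts (at least 3.91-fold and at least 2.95-fold). F131-R164 had 61, 39, 0 and 0 counts and was at least 3.23-fold higher (edgeR adjusted p = 5.30e-05). F131-R170 had 48, 45, 38 and 3 counts and did not pass (log2 change -0.27 ± 0.64, edgeR adjusted p = 0.715). The 2 reverse primers lie 2.34 kb apart, and a difference between them was not tested. F133-R164 had 103, 36, 3 and 2 counts (log2 change 2.87 ± 0.89, edgeR adjusted p = 0.00226), and it did not pass without either adult library or without larvae replicate 1 (edgeR adjusted p = 0.112, 0.0600 and 0.118).

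Among the 9 pairs higher in larvae, 3 had a partner within 3.53 kb. Of these, F165-R155 and F156-R164 are mirrored pairs with identical counts in both adult libraries. Since they differ in larvae, both remain where identical mirrored pairs are counted once. F165-R155 at 3.53 kb had 33, 29, 57 and 23 counts, and in CPM both larvae libraries were above both adult libraries (log2 change -2.11 ± 0.55, edgeR adjusted p = 2.68e-04). F156-R164 at 3.20 kb had a log2 change of -1.59 ± 0.62 (edgeR adjusted p = 0.0164). F163-R164, whose primers lie 0.251 kb apart, had 9, 7, 42 and 3 counts (log2 change -2.95 ± 0.79, edgeR adjusted p = 3.25e-04). Each of these did not pass when either adult library was left out, and F163-R164 did not pass without larvae replicate 1 either (edgeR adjusted p from 0.126 to 0.492 over these fits). F152-R170 at 8.09 kb had 9, 1, 24 and 7 counts (log2 change -3.38 ± 0.80, edgeR adjusted p = 8.83e-05) and did not pass without adult replicate 2 or without larvae replicate 1 (edgeR adjusted p = 0.161 and 0.0776).

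The other pairs higher in larvae reached far. F165-R222 and its mirror F221-R164, 30.2 kb apart into the upper block, had 1, 1, 36 and 4 counts (log2 change -5.65 ± 1.00, edgeR adjusted p = 1.19e-07). F173-R77, 48.3 kb into the low flank, had 0, 0, 29 and 5 counts and by stage means was at least 17.4-fold higher in larvae (edgeR adjusted p = 8.41e-10). F173-R227, 29.5 kb into the upper block, had 0, 0, 21 and 3 counts and was at least 11.9-fold higher (edgeR adjusted p = 6.60e-12). These 4 pairs stayed higher in larvae in direction without adult replicate 1, adult replicate 2 or larvae replicate 2. The log2 change of F165-R222 and its mirror was -4.98, -5.69 and -6.15 in these fits. None of the 4 pairs was tested without larvae replicate 1, which held most of their larval reads. F165-R222 and F221-R164 are not separate measurements. F168-R211 had 0, 0, 13 and 3 counts, at least 8.76-fold higher in larvae (edgeR adjusted p = 7.30e-11), and did not pass without either adult library (edgeR adjusted p = 0.0955 and 0.141).

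The same partner could go opposite ways with different primers of the window. R211 (55962070 to 55962099) was higher in adults with F165 (60, 56, 0 and 0 counts) and higher in larvae with F168 (0, 0, 13 and 3 counts), although F165 and F168 lie 1.92 kb apart. The counts of F165-R211 equal those of F210-R164, a pair within the block, and the 2 cannot be read as separate measurements. Of 9 partners tested with 2 window primers, 3 had the same call with both, 1 had opposite calls and 5 passed with 1 primer only. R153 met F165 with 95, 42, 0 and 0 counts, F168 with 10, 8, 37 and 2 counts, which was not tested, and F173 with 15, 14, 8 and 0 counts, which did not pass (log2 change 0.21, edgeR adjusted p = 0.806).

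**Figure D5:**
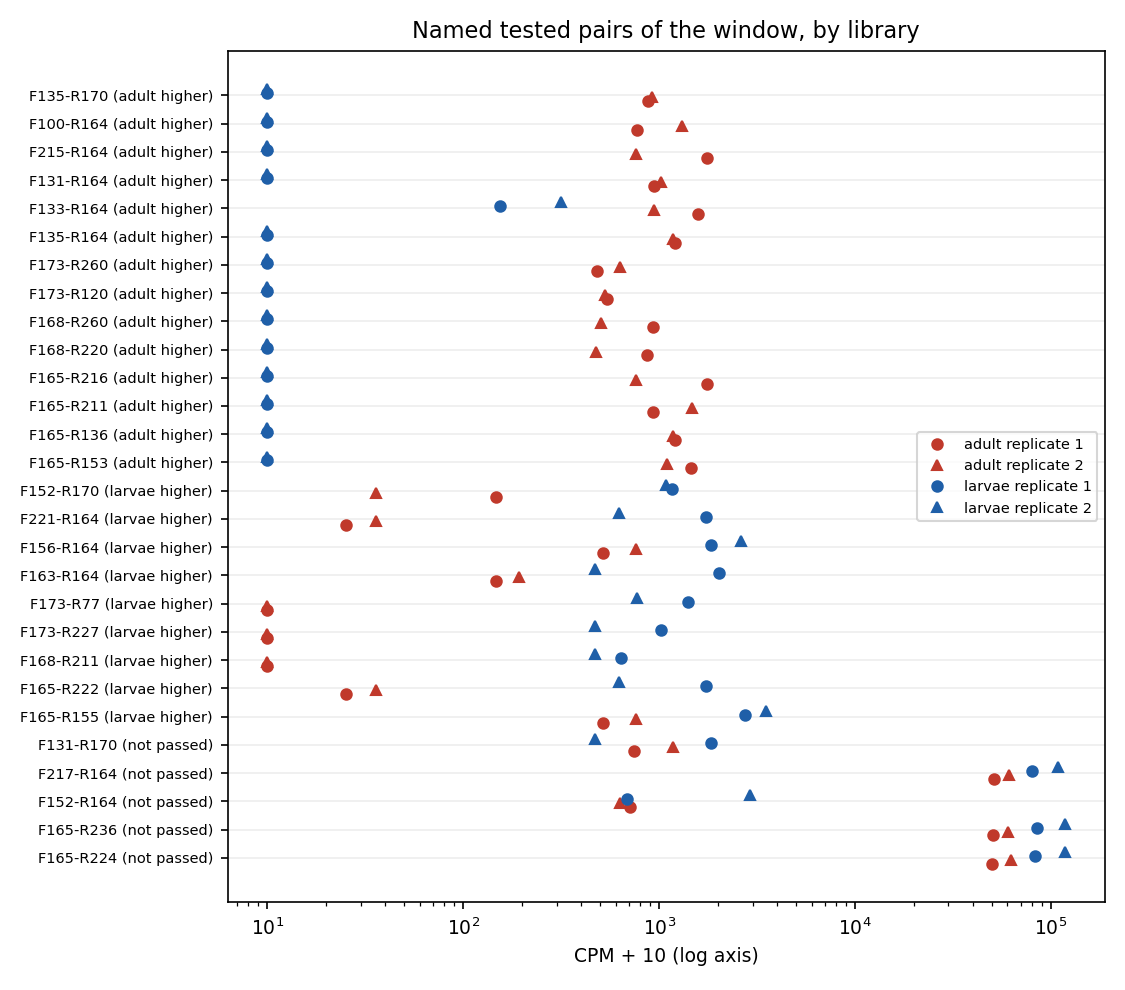
CPM plus 10 of the 28 named and tested hub pairs in each library, on a log axis, with the result of the edgeR test in brackets. A count of 0 is drawn at 10, where both larvae libraries lie for all plotted pairs higher in adults except F133-R164, and the 3 dominant pairs lie far to the right.

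The 6 primers of the window took part unequally. R164 and F165 carried 6.92%, 7.55%, 8.77% and 11.8% and 11.2%, 13.2%, 17.3% and 24.0% of library counts in distal pairs, for the most part in the dominant pairs. Without these, R164 stood at 1.92% ± 0.250 in adults and 1.15% ± 0.194 in larvae, and F165 at 1.24% ± 0.175 and 0.723% ± 0.000822 (SD, n = 2). R170 stood at 0.967% ± 0.0607 and 0.746% ± 0.229, and F173 at 0.673% ± 0.0286 and 0.601% ± 0.0905. R166, which lies between F165 and F168, had 176, 88, 18 and 1 distal reads in all, and none of its pairs was tested. Its strongest partners were F112 and F104 in adults (27 and 24 counts in replicate 1) and F54 and F138 in larvae (8 and 5 counts in replicate 1). Counting the dominant pairs, distal pairs were 92.7% to 99.1% of all reads of F165. Its distal reads were 7336, 5096, 3607 and 1571, of which only 758, 351, 113 and 31 lay outside the dominant pairs. For F168, which is in no dominant pair, distal pairs were 14.1% to 38.1% of all reads, and its remaining reads stayed within the block.

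F168 and F173 met the far end of the upper block in adults. With R260 (55990824 to 55990853) F168 had 60, 19, 0 and 0 counts and F173 had 31, 24, 0 and 0 counts, at least 2.34-fold and at least 1.82-fold higher in adults (edgeR adjusted p = 1.68e-04 for both). Elsewhere, F168-R220, with R220 in the upper block (55972625 to 55972654), had 56, 18, 0 and 0 counts. F173-R120, with R120 in the low flank (55922861 to 55922890), had 35, 20, 0 and 0 counts. They were at least 2.19-fold and at least 1.75-fold higher in adults. Without larvae replicate 1 none of these 4 pairs passed (edgeR adjusted p from 0.0766 to 0.132). F168-R260, F173-R260 and F173-R120 also did not pass without adult replicate 1 (edgeR adjusted p = 0.112, 0.0635 and 0.101), and F173-R120 did not pass without adult replicate 2 (edgeR adjusted p = 0.155).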

How the data were processed

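The 5C reads joining each forward to each reverse primer were counted in 2 adult and 2 larvae blood libraries. The submitters' processing notes name bcl2fastq 1.8.4, Bowtie2 2.2.2 and danRer7, and the authors deposited 1 matrix of raw counts per library with no normalization. Per the labels' protocols 350 ng of 3C library entered each annealing and 28 PCR cycles followed. The sources used here do not give how reads became counts or how mirrored primers and PCR duplicates were treated.

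Stages were compared by quasi-likelihood tests of edgeR 4.0.16 under R 4.3.3 (TMM factors, a model of stage alone, filterByExpr at count 10 and total 15), on all 6699 pairs and on sums over bins of 5 kb, with Benjamini-Hochberg adjustment over all features tested and a threshold of 0.05. Standard errors were derived from the quasi-likelihood F. Both fits were run on simulated counts with 200 of 679 pairs or 40 of 310 bin pairs changed 4-fold. They recovered 189 and 38 of these, with 6 and 0 false calls. The simulated spread was a fixed value not taken from these replicates, so this does not measure the error rate in these data. CPM divides by the library total, and values without the dominant pairs divide by the total without them. Alternatives were DESeq2 1.42.0, library totals, no filter, no dominant pairs, pairs at least 5 kb apart, bins of 10 kb, thinning, a replicate block, leaving out each library, and, added after seeing the data, mirrored pairs counted once. Pairs named were the 3 dominant pairs, per window primer the 2 strongest partners in each stage, and the 8 smallest p in each direction with reads in both libraries of the higher stage, and other pairs named were chosen after their values were seen. All 25 distal bins of the hub were named, whether or not they were tested or passed. The members and these lists were chosen with earlier results of these data known. Primer sequences were not used here.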

Additional observations from a re-analysis of the deposited data

How the results depend on the processing

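Replicate numbers did not act as pairs: deviations from the stage means correlated at 0.0059 over 679 pairs. With the replicate block, 29 hub pairs were higher in adults and 12 in larvae, against 30 and 9 without it. The 3 added were the dominant pairs F217-R164, F165-R224 and F165-R236 (edgeR adjusted p = 1.55e-05, 3.72e-07 and 8.62e-08). The bin counts stayed at 13 and 4 under the block.

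Pair calls depended on depth and on single libraries. Without a filter on low counts, 78 hub pairs were higher in adults and 20 in larvae. With all libraries thinned to one depth only 4 hub pairs could be tested, with 0 called higher in adults and 1 higher in larvae (edgeR). Leaving out 1 library gave 9 to 48 pairs higher in adults and 3 to 11 higher in larvae. Against 13 bins higher in adults, bins of 10 kb gave 6 (of 13 tested) and thinning gave 7, and leaving out 1 library gave 7 to 14. Against 4 bins higher in larvae, the fit without the dominant pairs gave 2 and thinning gave 2, and leaving out 1 library gave 0 to 4.

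The difference in share (adult minus larvae, percentage points) turned without the dominant pairs from -10.7 to 1.97 for all distal contacts and from -12.2 to 0.604 for the upper block, since these pairs held 74.8% to 93.9% of the distal reads of the hub. For the low flank it moved from 1.34 to 2.49 when only pairs at least 5 kb apart were kept. Over the fits without 1 library, the 4 differences ran from -15.2 to -6.24, from -16.8 to -7.67, from 1.13 to 1.56 and from 0.0918 to 0.242 for all, upper block, low flank and high flank. F131-R170 turned to higher in adults without a filter (0.19), without the dominant pairs (0.20), without adult replicate 1 (0.28) and without larvae replicate 1 (1.19), and F152-R164 without larvae replicate 2 (0.11), none past the threshold; the cause was not tested. Without 1 library F131-R170 ran from -0.83 to 1.19 and F152-R164 from -1.96 to 0.11, and at -1.96 (without larvae replicate 1) it passed as higher in larvae (edgeR adjusted p = 0.0250). F156-R164 did not pass with DESeq2 (adjusted p = 0.0569) or without a filter (edgeR adjusted p = 0.100).

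Among the 23 named pairs that passed, 8 of 14 higher in adults kept their call in all 4 fits without 1 library, and none of 9 higher in larvae was both tested and called in all 4. Over all tested pairs the log2 change had a median of 1.08, and 0.97 with library totals, 1.12 with DESeq2, 1.20 without the dominant pairs, 3.10 without a filter, 2.16 with pairs at least 5 kb apart, 0.11 after thinning and 0.92 with mirrored pairs counted once. It was 0.45 and 0.59 without adult replicate 1 or 2, and 6.17 and 3.20 without larvae replicate 1 or 2, fits that also tested other numbers of pairs.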
